A study of Mus musculus with 8 samples.

Results

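Cytosolic ribosomal protein genes encode the proteins of the ribosomes that translate nuclear messages in the cytosol. Members were taken from the array annotation by symbol: large subunit genes named Rpl, small subunit genes named Rps, the stalk genes Rplp0, Rplp1 and Rplp2, and Rpsa. Probe sets that name several genes were left out, as were ribosomal S6 kinase genes and pseudogenes, and each gene was represented by its probe set with the highest mean over the 8 arrays. This gave 62 genes, 39 of the large and 23 of the small subunit, among 22180 genes with a probe set of their own. Of the 62, 50 reached the intensity filter used for testing, a mean log2 intensity of 4.05, and 12 did not.

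The study asked how stem cell factor (SCF), which binds the growth factor receptor Kit, acts on wild-type C57BL/6 dendritic cells from female mice under low oxygen. Bone marrow was grown for 7 days with GM-CSF at 20 ng/ml under 21% oxygen, and the CD11c-positive cells were isolated on magnetic beads to about 98%. All cells then spent 2 days with GM-CSF at 20 ng/ml under 2% oxygen, after which SCF cultures received SCF at 100 ng/ml for 6 hours and medium cultures did not. There were 4 SCF and 4 medium arrays, 1 pair from each of experiments BC, D2, E and I, and no age of the mice, or pooling of animals, is stated. The labelled cell type fits its markers in part: 7 of 7 measured dendritic cell markers were past the filter, among them Itgax (CD11c) at a mean log2 intensity of 10.05, but so were 6 of 6 macrophage and monocyte markers, while 1 of 7 neutrophil, 1 of 6 mast cell and basophil, 1 of 3 B cell, 0 of 5 T and NK cell, 0 of 1 erythroid and 1 of 3 stromal markers were.

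A ribosome is built from a small subunit, which reads the message, and a large subunit, which joins the amino acids. Its proteins are needed in matching amounts, and their messages are among the most abundant of a growing cell. Most of these messages start with a cytosine followed by a run of pyrimidines, the 5′ terminal oligopyrimidine (TOP) tract. Through this tract the growth-factor-activated kinase complex mTORC1 controls how strongly they are translated, a step that an array of total RNA does not measure.

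To show what this tract looks like, the 15 bases before and the 15 bases from the annotated start of transcription are given for 6 members, 5′ to 3′, with a tract in capitals. The sequences are from RefSeq, build GRCm38.p6. A tract was defined as a C followed by at least 4 pyrimidines, beginning within 5 bases of the start. That C could lie inside a run of pyrimidines that began further upstream, and the tract was then counted from the C. Rps6 encodes the S6 protein that is phosphorylated downstream of mTORC1 (chr4:86857353-86857382, minus strand), and Rpl28 (chr7:4792950-4792979, plus), Rpl38 (chr11:114668565-114668594, plus) and Rps27 (chr3:90213634-90213663, minus) are shown as further members with a tract. Rplp0 (chr5:115559452-115559481, plus) and Rpsa (chr9:120127751-120127780, plus) are shown because the results below describe them and neither held a tract at this start.
Rps6: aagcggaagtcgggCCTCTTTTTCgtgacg
Rpl28: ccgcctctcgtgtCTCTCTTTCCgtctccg
Rpl38: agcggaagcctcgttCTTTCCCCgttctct
Rps27: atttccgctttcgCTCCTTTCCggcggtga
Rplp0: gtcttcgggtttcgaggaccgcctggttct
Rpsa: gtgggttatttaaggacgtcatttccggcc

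RefSeq promoters were given for 49 of the 62 members, with 58 annotated starts. A TOP tract was found at 39.7% of these starts, against 18.3% of all 32851 starts in the table. The letters CCGGAAG, searched on both strands of the window from 250 bases before to 50 after the start, were present at 37.9% of the members' starts and at 8.86% of all starts. For AAGATGGC the shares were 3.45% and 2.75%, and for TATAAA 8.62% and 13.6%. A match describes the letters only, and an annotated start can lie some bases from the one used in these cells. The members lay on 19 chromosomes, with at most 8 on one of them, chromosome 7.

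No cytosolic ribosomal protein gene passed the test of SCF against medium. In the limma fit paired by experiment, 0 of the 50 tested members had an adjusted p under 0.05, and 0 of all 12668 probe sets tested (0%) did. At an unadjusted p under 0.05 there were 0 members, where 4.21% of all probe sets stood, 1.95% higher and 2.26% lower with SCF. The fitted log2 differences of the 50 members lay between −0.074 and 0.14. All 50 of the 95% intervals lay within 1.5-fold in both directions, and 43 lay within 1.2-fold. Because each array reads RNA from a bulk culture, fewer cells of a type and less RNA per cell cannot be told apart.

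The direction of these small differences was uneven. Of the 50 tested members, 41 had a fitted difference above 0, where 50.5% of all probe sets did, and their median log2 difference was 0.044 (1.03-fold) against 0.00077 over all probe sets tested. With the array medians equalized, 37 of the 50 were above 0 and the median was 0.025, against −0.018 over all probe sets tested. The share of all probe sets with a fitted difference above 0 was not counted at that scaling. Above 0 were 26 of 31 large subunit genes, with a median of 0.040, and 15 of 19 small subunit genes, with a median of 0.056. The tested members at a mean log2 intensity of 8 or more had a median of 0.049 with 30 of 33 above 0. The 2208 other probe sets as bright had a median of −0.0012, with 1086 (49.2%) above 0. Members from the filter up to 8 had a median of 0.030 with 11 of 17 above 0. These genes were not chosen independently of earlier results, so the counts describe them and no p-value is attached.

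As deposited, the median of all 50 tested members was above 0 in each experiment. Over the 50 genes the median log2 difference, SCF minus medium, was 0.042 for BC, 0.022 for D2, 0.033 for E and 0.056 for I, against −0.0075, 0.0042, 0.00036 and 0.0048 over all probe sets tested. Experiment BC had 38 members above 0 (47.9% of all probe sets), D2 had 33 (51.3%), E had 31 (50.1%) and I had 35 (51.7%). The 33 members at 8 or above had medians of 0.037 (BC), 0.056 (D2), 0.044 (E) and 0.061 (I), with 26, 27, 23 and 27 above 0. For the 17 members from the filter to 8 the medians were 0.13, −0.055, −0.00021 and −0.0050, with 12, 6, 8 and 8 above 0. Among these dimmer members only BC thus had a median above 0. The signs of the medians over all 50 members depend on the scaling. With the array medians equalized, that median was −0.023 for BC, 0.017 for D2, −0.00058 for E and 0.082 for I. Relative to the median of all probe sets tested, the members stood at 0.049 (BC), 0.018 (D2), 0.033 (E) and 0.051 (I) both as deposited and with the medians equalized, and at 0.061, 0.030, 0.032 and 0.041 after a repeated quantile normalization. Markers of macrophages and monocytes moved within the same pairs, with a median difference over 6 genes of −0.33 for BC, 0.11 for D2, −0.093 for E and −0.061 for I, and with 6 of 6 fitted differences below 0. The mean log2 intensity of that marker list lay between 6.89 and 7.66 on SCF arrays and between 7.22 and 7.75 on medium arrays, with no defining marker at 0, and its part in the result was not tested. On the deposited scale dendritic cell markers lay on the members' side, with 6 of 7 fitted differences above 0 and a median of 0.040. By experiment their median was 0.13 (BC), 0.032 (D2), 0.020 (E) and 0.069 (I). The exception was Itgax (CD11c), on which the cells were isolated. Its fitted difference was −0.062, with −0.24 (BC), 0.077 (D2), 0.020 (E) and −0.11 (I). The dendritic cell list mean lay between 8.55 and 8.68 on SCF arrays and between 8.54 and 8.61 on medium arrays. The part of this list in the result was not tested either. No marker of the 2 lists had an adjusted p under 0.05, and the lists were not refitted with equalized array medians.

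**Figure D1:**
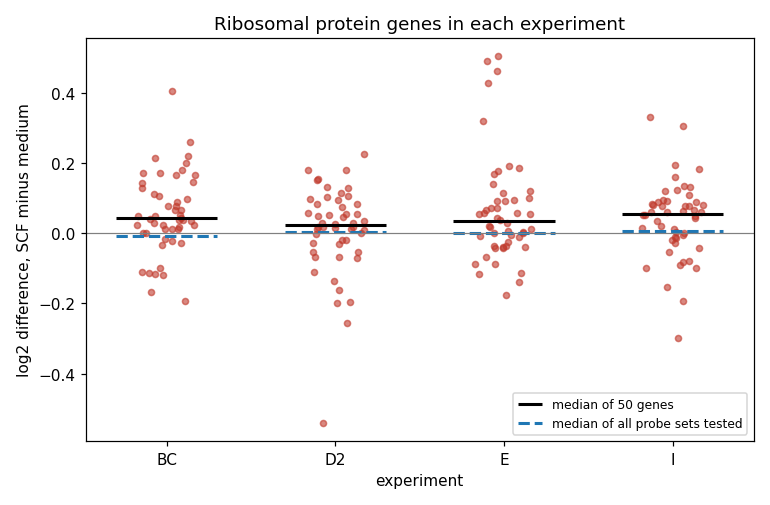
Log2 difference, SCF minus medium, of the 50 tested ribosomal protein genes in each of the 4 experiments (points), with their median (black line) and the median of all 12668 probe sets tested (dashed blue line). On the deposited scale the members' median lies above that of all probe sets in each experiment, by 0.018 in D2 to 0.051 in I. With equalized array medians the members' median was below 0 in BC and E.

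Taken gene by gene on the deposited scale, 12 tested members were above 0 in 4 of 4 experiments, against 6.43% of all probe sets. Below 0 in 4 of 4 was 1 member, against 6.44%. The groups did not overlap for 1 member, Rpl8, where 0.568% of all probe sets had every SCF array above every medium array and 0.971% showed no overlap in either direction. The 5 largest differences among the members above 0 in all experiments on that scale were those of Rplp0, Rps12, Rpl8, Rplp1 and Rpsa. With the array medians equalized, 21 (BC), 32 (D2), 25 (E) and 39 (I) of the 50 members were above 0. Over all 12668 probe sets tested these counts were 3946, 6313, 4901 and 7670. Members with one sign in all experiments were not counted at that scaling.

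Rplp0 encodes the protein at the base of the ribosomal stalk, the flexible arm of the large subunit that recruits elongation factors. Its log2 intensity with SCF was 9.58 (BC), 9.40 (D2), 9.38 (E) and 9.59 (I), against 9.40, 9.25, 9.30 and 9.51 in medium. The SCF array was the higher of each pair, yet the groups overlapped because BC and I were high in both conditions. The log2 difference was 0.12 (SE 0.051, 95% interval −0.00036 to 0.24, limma adjusted p = 0.945). Rplp1 encodes one of the acidic proteins that sit on that base. It measured 10.59, 10.56, 10.56 and 10.57 with SCF in BC, D2, E and I, against 10.55, 10.38, 10.47 and 10.57 in medium. The SCF arrays were nearly level, and the gap came mostly from the low medium array of D2, with a log2 difference of 0.078 (SE 0.054, limma adjusted p = 0.945). Rplp2, its partner on the stalk, was below the filter, at 3.13 ± 0.10 with SCF and 3.11 ± 0.16 in medium (SD, n = 4 each).

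Rpl8, a large subunit protein gene, measured 9.43, 9.39, 9.38 and 9.42 with SCF in BC, D2, E and I, against 9.35, 9.28, 9.29 and 9.35 in medium. All 4 SCF arrays lay above all 4 medium arrays, though by a small step, and the log2 difference was 0.085 (SE 0.048, 95% interval −0.029 to 0.20, limma adjusted p = 0.945). Rps12, a small subunit protein gene, measured 8.90, 8.90, 8.83 and 8.96 with SCF, against 8.89, 8.79, 8.67 and 8.92 in medium. Its medium array of E was the lowest of the 8, and the groups overlapped. The log2 difference of Rps12 was 0.086 (SE 0.053, limma adjusted p = 0.945). Rpsa, the small subunit protein that also serves as a laminin receptor, measured 9.82, 9.75, 9.68 and 9.81 with SCF, against 9.77, 9.62, 9.62 and 9.73 in medium. Each SCF array was above its partner by 0.050 to 0.13, with overlapping groups and a log2 difference of 0.078 (SE 0.049, limma adjusted p = 0.945).

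Rps7, a small subunit protein gene, was the 1 tested member below 0 in all experiments on the deposited scale. It measured 5.75, 5.60, 5.67 and 5.72 with SCF in BC, D2, E and I, against 5.86, 5.74, 5.71 and 5.73 in medium. The medium array of BC stood above the rest, and the log2 difference was −0.074 (SE 0.052, 95% interval −0.19 to 0.047, limma adjusted p = 0.945). Rps6 differed little: it measured 11.25, 11.23, 11.17 and 11.29 with SCF, against 11.26, 11.26, 11.24 and 11.21 in medium. The SCF array was the lower in BC, D2 and E and the higher in I, and the log2 difference was −0.0091 (SE 0.052, limma adjusted p = 0.996), or 0.010 with E left out.

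**Figure D2:**
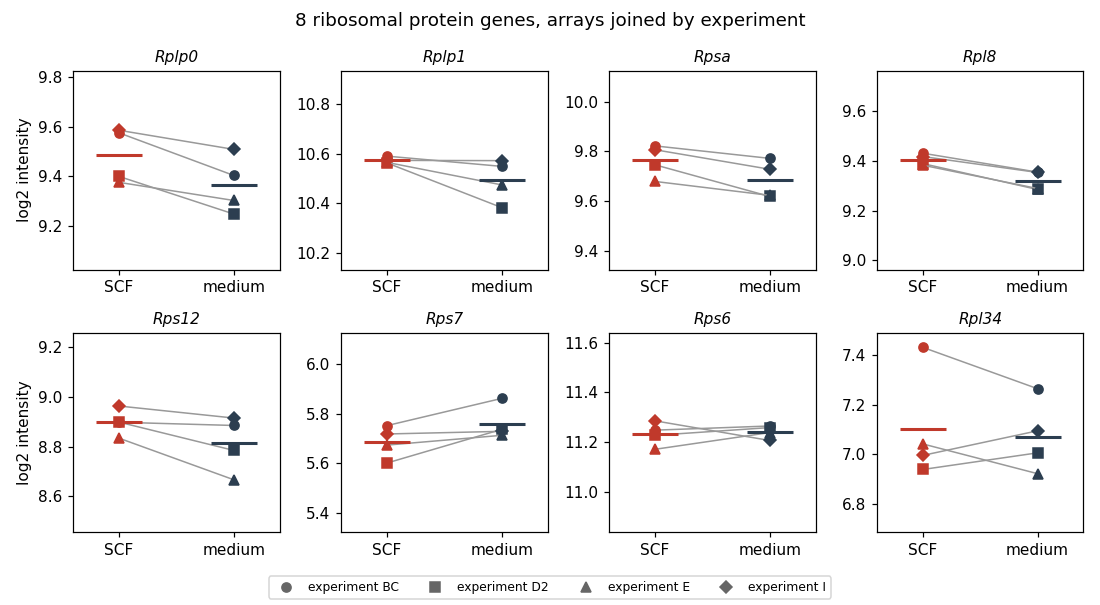
Log2 intensity of 8 ribosomal protein genes on the SCF arrays (red, left) and the medium arrays (dark, right) of each panel, with grey lines joining arrays of one experiment and bars at the group means (n = 4). Each axis spans 0.8 log2 units around the gene's own mean. Rpl8 is the gene whose groups do not overlap, Rps7 is lower with SCF in each experiment, and the panel of Rpl34 shows BC above the other experiments in both conditions.

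Several members have a close paralog. Rps27 and Rps27l encode near-identical small subunit proteins, of which Rps27l is known as a target of p53. Rps27l measured 7.61, 7.43, 7.46 and 7.57 with SCF in BC, D2, E and I, against 7.41, 7.45, 7.40 and 7.44 in medium, so that D2 went the other way from the remaining experiments (log2 difference 0.094, SE 0.057, limma adjusted p = 0.945). Rps27 measured 5.48, 5.31, 5.31 and 5.21 with SCF, against 5.39, 5.28, 5.12 and 5.27 in medium, and here I was the experiment below 0 (log2 difference 0.063, SE 0.058, limma adjusted p = 0.945). The difference between the paralogs was not tested. Rpl39l, whose protein belongs to a ribosome variant of the testis, had a log2 difference of 0.10 (SE 0.097), which ranged from −0.20 in D2 to 0.43 in E, and Rpl39 one of −0.049 (SE 0.065), from −0.19 in I to 0.14 in BC (limma adjusted p = 0.945 and 0.960). Rpl3, a core protein of the large subunit, had a log2 difference of 0.11 (SE 0.083, limma adjusted p = 0.945), with 0.26 in BC and 0.32 in E against −0.069 in D2 and −0.082 in I. Over the 3 probe sets of Rpl3, all past the filter, the mean difference ranged from −0.070 to 0.11. Its striated muscle paralog Rpl3l was below the filter, at 3.60 ± 0.032 with SCF and 3.56 ± 0.046 in medium, and so was Rpl10l, a retrogene of the testis, at 2.81 ± 0.037 with SCF and 2.76 ± 0.039 in medium (SD, n = 4 each). Rps4x, the X-linked form of a small subunit protein, was level, at 10.12 ± 0.020 with SCF and 10.12 ± 0.067 in medium (log2 difference −0.00081, SE 0.050, limma adjusted p = 1.00).

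**Figure D3:**
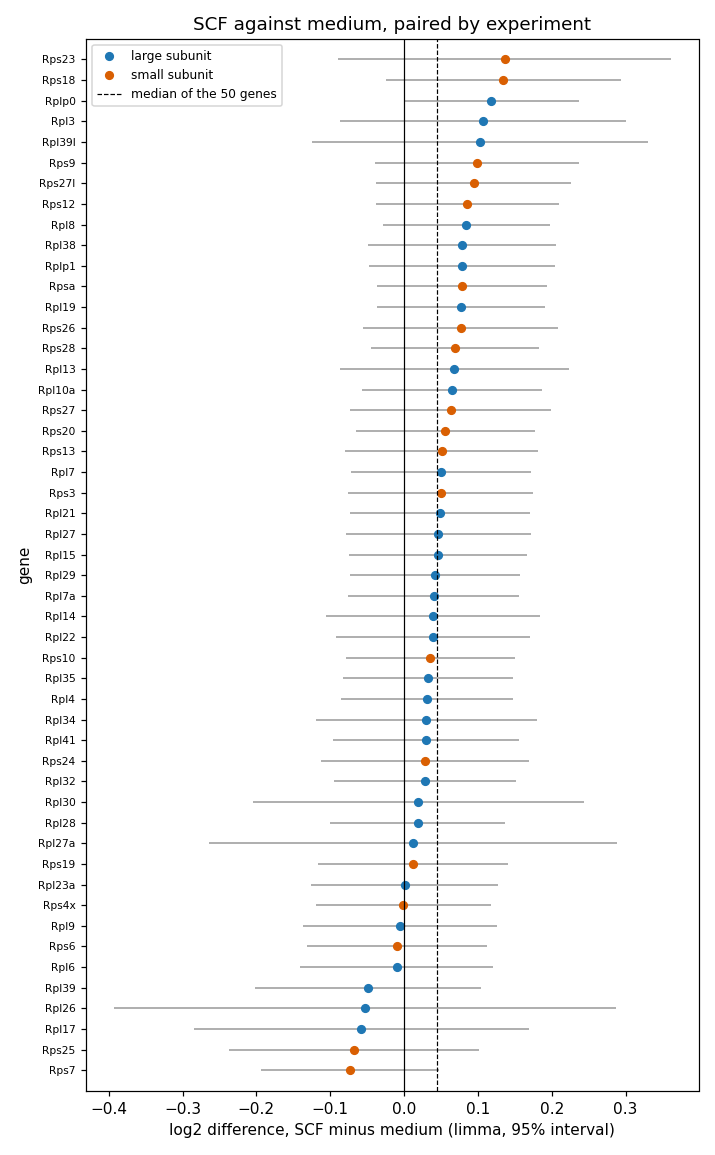
Fitted log2 difference, SCF minus medium, of the 50 tested members with its 95% interval (grey), large subunit in blue and small subunit in orange, and their median as a dashed line at 0.044. Every interval reaches 0 and lies within 1.5-fold, and 41 points lie to the right of 0. With equalized array medians 37 of the 50 did, where the share over all probe sets was not counted.

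The tested members with the widest range over the 8 arrays were Rpl26, Rpl27a, Rpl34 and Rps23, and 3 of them were among the dim members, at mean log2 intensities from 4.54 to 5.08. Rpl26 measured 5.10, 4.78, 5.30 and 5.03 with SCF in BC, D2, E and I, against 5.12, 5.31, 4.79 and 5.19 in medium, a spread of 0.54. Its differences of −0.54 in D2 and 0.50 in E opposed each other. Rps23 had the largest fitted difference of the tested members, 0.14 (SE 0.096, limma adjusted p = 0.945), which came from the medium array of E at 4.15, while its other 7 arrays lay between 4.48 and 4.66.

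The 12 members below the filter were Rpl3l, Rpl5, Rpl10l, Rpl11, Rpl32l, Rpl37, Rpl37a, Rplp2, Rps14, Rps15, Rps16 and Rps29, with means between 2.58 and 3.92. Rpl5 and Rpl11, which with a ribosomal RNA form the particle that restrains the p53 ubiquitin ligase Mdm2, measured 3.71 ± 0.21 and 3.85 ± 0.036 with SCF, against 3.62 ± 0.10 and 3.83 ± 0.091 in medium (SD, n = 4 each). Rps15 had the widest range of all 62 members, 0.85, with differences of 0.53 in E and −0.73 in I. Single arrays crossed the filter value for Rps15 and Rps16, whose medium arrays of I stood at 4.10 and 4.25 against 3.37 and 3.67 on the SCF arrays of I. A dim probe set does not show that a gene is off: 24 of the 62 members had several probe sets, and within a gene the means of its probe sets differed by up to 7.88 log2 units, in Rps26. The probe sequences were not used here, and ribosomal protein genes have many processed pseudogenes, so reads of near-identical copies cannot be told apart. For 17 members, 2 or more distinct probe sets were past the filter, and in 7 of these the SCF minus medium difference had opposite signs between probe sets. Another 57 probe sets that name a ribosomal protein gene together with other genes were not counted as members. Of these, 48 were past the filter and 40 of those were above 0, with a median of 0.050. For 12 ribosomal protein gene symbols such probe sets were the only ones, so these genes are missing from the 62.

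Differences between the 4 experiments were described next. In the moderated F-test of experiment, 0 of the 50 tested members passed an adjusted p of 0.05, against 3.35% of all probe sets, and at an unadjusted p under 0.05 there were 6 members (12.0%), against 24.2%. The count of 0 depends on the fit: with a variance trend 5 of 50 members (10.0%) passed, against 12.1% of all probe sets, and with the stricter intensity filter 3 of 36 (8.33%), against 22.4%. The median residual SD of the members was 0.055, that of all probe sets tested 0.085 and that of all probe sets at 8 or above 0.057. Experiment E was the lowest of the 4 for 33 of 50 members, where 19.4% of all probe sets were lowest in E. BC was the highest for 27 of 50, where 31.7% of all probe sets were. As a median over the members, an experiment's mean of its SCF and medium array deviated from the gene's own mean by 0.037 (BC), −0.010 (D2), −0.059 (E) and 0.017 (I), against 0.013, −0.014, 0.0050 and −0.011 over all probe sets tested.

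The individual arrays showed the same order. The SCF arrays deviated from the genes' means by a median of 0.076 (BC), 0.0093 (D2), −0.045 (E) and 0.048 (I), and the medium arrays by 0.028, −0.021, −0.077 and −0.011. The medium array of E was therefore the lowest and the SCF array of BC the highest, with 5 and 44 of the 50 members above their own means. The 4 members with the smallest p for experiment were Rps28, Rpl34, Rps19 and Rpl7. Rps28, a small subunit protein gene, measured 9.44, 9.15, 9.16 and 9.36 with SCF in BC, D2, E and I, against 9.37, 9.05, 9.12 and 9.30 in medium, so BC and I were above D2 and E in both conditions (limma F-test, adjusted p = 0.0882). Rpl34, a large subunit protein gene, measured 7.43, 6.94, 7.04 and 7.00 with SCF, against 7.26, 7.01, 6.92 and 7.10 in medium, with BC apart from the rest (adjusted p = 0.109). Rps19, a small subunit protein gene mutated in Diamond-Blackfan anaemia, measured 9.47, 9.30, 9.28 and 9.49 with SCF, against 9.57, 9.30, 9.18 and 9.44 in medium (adjusted p = 0.137), and Rpl7 had experiment means of 8.32, 8.16, 8.19 and 8.42 (adjusted p = 0.166). Whether such differences come from the animals, the cultures or the arrays cannot be told apart, since each experiment was 1 preparation. In the same F-test 3 of 6 macrophage and monocyte markers had an adjusted p under 0.05, against 3.35% of all probe sets. Of the dendritic cell markers 0 of 7 did, and of mast cell and basophil markers the 1 tested, Cpa3. Experiment means in BC, D2, E and I were 4.78, 5.29, 6.01 and 4.78 for Cd14, and 7.93, 8.25, 8.70 and 7.69 for Fcgr1. For Ly6c2 they were 5.66, 6.43, 6.96 and 7.01. The part of these markers was not tested.

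**Figure D4:**
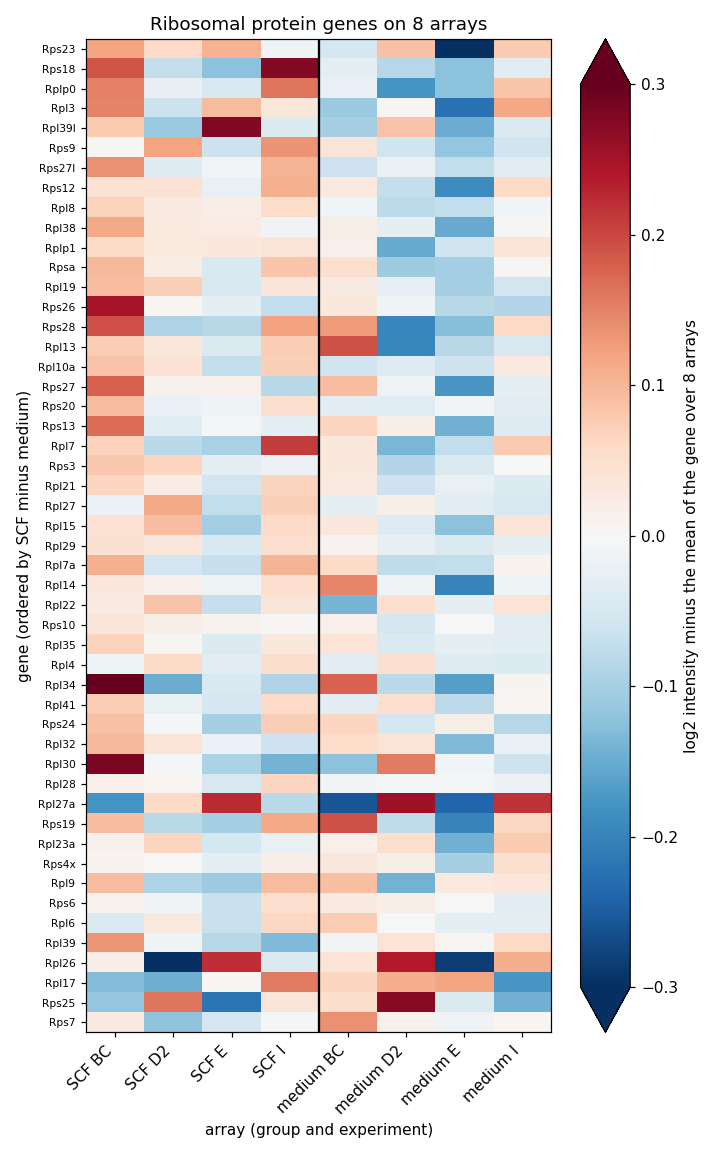
Log2 intensity of each tested member on each array minus the gene's mean over the 8 arrays, with the 4 SCF arrays left of the 4 medium arrays and genes ordered by their fitted difference; the colour scale ends at 0.3 in each direction. The SCF array of BC is red for most genes and the medium array of E blue for most. Rpl26 and Rpl27a, both dim, show strong colours of opposite sign among arrays of one group.

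Genes that work with the ribosomal proteins were compared in the same fit. Of 3 measured ribosomal proteins with other names or close relatives, 0 passed and 3 were above 0. Rpl22l1, a paralog of the large subunit gene Rpl22, measured 6.74, 6.26, 6.29 and 6.58 with SCF in BC, D2, E and I, against 6.39, 6.30, 6.01 and 6.42 in medium. Its SCF array was the higher in BC, E and I, with a log2 difference of 0.19 (SE 0.071, unadjusted p = 0.032, limma adjusted p = 0.945). Of the 3 genes it was the only gene at an unadjusted p under 0.05, where 4.21% of all probe sets stood. Rpl22 itself had a log2 difference of 0.039 (SE 0.056, limma adjusted p = 0.961). Fau, which encodes a small subunit protein fused to a ubiquitin-like one, had a log2 difference of 0.029 (SE 0.051, limma adjusted p = 0.974), and Rpl7l1 one of 0.018 (SE 0.050, limma adjusted p = 0.984).

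A list of elongation factors and other genes taken to have TOP messages had 17 tested genes, of which 0 passed and 12 were above 0. Whether their starts hold the tract was not examined. Their median log2 difference was 0.038, with a range from −0.068 to 0.11. The largest were the initiation factor subunit gene Eif3l at 0.11 (SE 0.065) and the elongation factor subunit gene Eef1g at 0.090 (SE 0.051), each at a limma adjusted p of 0.945. Ribosome biogenesis factors, which process ribosomal RNA and assemble the subunits, had 30 tested genes, of which 0 passed and 11 were above 0, with a median of −0.033. By experiment their median was −0.15 (BC), 0.039 (D2), −0.023 (E) and 0.037 (I). Gnl3, the nucleostemin gene, stood at −0.14 (SE 0.062, limma adjusted p = 0.945), with each pair below 0, and the assembly factor gene Grwd1 was at −0.11 (SE 0.062, limma adjusted p = 0.945). Of 21 tested genes of mTORC1 and of proteins that bind or control TOP messages, 0 passed and 12 were above 0, with a median of 0.021. Rptor, the scaffold of mTORC1, measured 8.26, 7.97, 8.11 and 8.28 with SCF in BC, D2, E and I, against 8.09, 7.80, 7.95 and 8.18 in medium, higher in 4 of 4 pairs with overlapping groups (log2 difference 0.15, SE 0.049, unadjusted p = 0.018, limma adjusted p = 0.945). It was the only gene of the 21 at an unadjusted p under 0.05, where 4.21% of all probe sets stood.

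The ribosomal protein genes were also described by their TOP tract. The 19 tested members with a tract at an annotated start had a median log2 difference of 0.040, with 17 above 0. The 20 tested members with no tract at any annotated start had a median of 0.043, with 14 above 0. The 11 with no promoter given had a median of 0.049, with 10 above 0. An annotated start can lie some bases from the one used, so members of the set of 20 can still have messages with a tract. The difference between these sets was not tested.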

How the data were processed

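Total RNA of the 8 cultures was read on Affymetrix whole-transcript arrays after biotin labelling. The deposited table gives 1 intensity per probe set and array, made by the authors with RMA, as the submitters' processing notes say. Its program is not stated. Deposited values were on a linear scale, so log2 was taken, with no pseudocount. RMA aligns the distributions of the arrays, so a change shared by all genes would not show. Median intensities of the arrays lay between 13.3 and 13.9 on the linear scale, no pair of arrays was identical, and signal over background is unknown. The number of arrays limits the precision: the median SE of a log2 difference was 0.062.

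Of 41345 probe sets, 23521 had 1 gene symbol, 1814 several and 16010 none in the platform annotation. All 62 members were found in RefSeq (GRCm38.p6) by Entrez number under the same symbol. The symbols Rpl6l and Rps4l matched but are pseudogenes there and were left out. The 12668 probe sets with a symbol whose mean log2 intensity reached the median of those means (4.05) were tested by limma 3.58.1 (R 4.3.3; lmFit, eBayes), two-sided, for SCF against medium with a fixed term for each experiment, and p-values were adjusted by Benjamini-Hochberg with a threshold of 0.05; the experiment terms gave the F-test. The fit was tested on simulated data. Pairing follows the design text, by which each experiment generated its own dendritic cells and cultured them in both conditions. After removal of the group means, paired arrays correlated at 0.46 (BC), 0.41 (D2), 0.42 (E) and 0.36 (I).

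Members, lists and tests were chosen with earlier results of these data known. Named by rule were stalk proteins, Rpsa, Rps6, members with a paralog and members below the filter. The 5 largest differences in each direction with one sign in all experiments were added. So were, among tested members, the 4 smallest p for experiment and the 4 widest ranges over arrays. Over all 62 members Rps15, Rps16 and Rpl5 ranged wider, and they are named as members below the filter. Values are given for the members named, except that Rpl27a, Rpl32l, Rpl37, Rpl37a and Rps14 are named only. From the other lists up to 4 genes with the smallest p were eligible. Rpl22, Rpl27a, Rps23 and the sequences of Rpl28, Rpl38 and Rps27 were chosen after the values were seen. Alternatives were the filter, the scaling, the pairing, the variance prior, the probe set rule and each experiment left out.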

Additional observations from a re-analysis of the deposited data

Results flagged for a closer look

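Among 64 groups of 4 arrays, 2 for each of 32 named members, 2 had an array far from the other 3 by Dixon's criterion, where chance gives about 1 in 20. For Rps29 the SCF array of BC stood at a log2 intensity of 3.40, with the other SCF arrays between 3.33 and 3.34, below the intensity filter. For Rps7 the medium array of BC stood at 5.86, with the other medium arrays between 5.71 and 5.74.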

How the results depend on the processing

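No member was called for SCF under any of the 12 alternatives (0 with no replicate block, against 0 with the arrays paired), and the smallest adjusted p of a member lay between 0.678 and 1.00. The members' median log2 difference of 0.044 was 0.025 with the array medians equalized, when the median of all probe sets tested was −0.018, and 0.035 after a repeated quantile normalization. It lay between 0.039 and 0.051 with 1 experiment left out. Chosen after seeing the data, the members at 8 or above gave 0.049 and the inclusion of the 2 pseudogenes 0.046. For differences between experiments, 0 members became 3 with the stricter filter (Rpl34, Rps19 and Rps28) and 5 with a variance trend (these and Rpl7a and Rplp0). Over all probe sets that count was 424, and 1391 of 6222 with the stricter filter, 1527 with the trend, 0 with no filter, 148 when BC was left out, 110 for D2, 38 for E and 177 for I. At an unadjusted p under 0.05, 6 members were higher with the trend, 1 (Rplp0) with the stricter filter or the quantile normalization, and 2 (Rpl17 and Rps25) were lower without I. The share of all probe sets at that p was counted for the main fit only (4.21%). These counts therefore lack a share to be read against. The fitted difference of Rps6 lay between −0.039 without I and 0.010 without E. The causes were not tested.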
